A study of Mus musculus with 6 samples.

Results

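Transcription factors that build and maintain the endocrine pancreas were followed as a group of 31 genes, taken by name out of the 20416 genes with a value in the series. Each was found by its symbol in the array annotation, and a probe set was used only where that annotation gave it exactly 1 symbol, which left 249 probe sets for the 31 genes, from 1 (Mafa and Pou3f4) to 26 (Myt1) a gene. RNA came from MIN6-4N, a mouse insulinoma line labelled as pancreatic beta cell, in which stable clones had been made with pcDNA3.1-mMeg3, a plasmid that expresses the mouse non-coding RNA gene Meg3, or with the empty plasmid pcDNA3.1. The Meg3 group is 3 cultures of a single Meg3 clone, named Meg-3 in the sample titles and Meg-5 in the extraction protocol, and the vector group is 3 cultures of a single vector clone, Vec-3. Both clones had been nucleofected, put under G418 (750 µg/ml) over 5 weeks, picked as single clones that RT-PCR had tested for Meg3, and grown in low-glucose DMEM with 15% serum and 500 µg/ml G418. Sample descriptions also mention sorted cells, and no protocol describes a sort. Because each group is 1 clone, the plasmid and other differences between the clones cannot be told apart, and the p-values rest on how far cultures of the same clone vary. Nor can fewer expressing cells and less RNA per cell be told apart in such bulk samples.

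Islet cells arise from foregut endoderm. Pdx1, Sox9, Ptf1a, Onecut1, the GATA factors and the FOXA factors act in pancreatic progenitors, a pulse of Neurog3 commits cells to the endocrine lineage, and factors such as Neurod1, Insm1, Isl1, Pax6, Nkx2-2 and Nkx6-1 carry on that program in differentiated islet cells. In beta cells Pdx1, Neurod1 and Mafa bind the insulin gene promoter, and beta cells that lose such factors are known to lose their identity.

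The brightest factors in both clones were Isl1, Insm1, Pax6, Neurod1, Pdx1 and Rfx6, and Onecut1 was the dimmest over all arrays. A level here is the mean log2 RMA signal of a gene's probe sets on an array, and since probes differ in affinity, the order of levels between genes is an order of array signal and not of RNA copies. Of the 31 factors, 19 lay above the median of all genes (6.66), and those 6 brightest lay above the 90th percentile of all genes. As a guide to what a gene with little RNA reads on this array, the 95th percentile of 982 olfactory receptor genes, which are mostly silent outside the olfactory epithelium, was 5.88. Above it lay 25 factors, and 66.0% of all genes. Those at or below it were Neurog3, Gata6, Ptf1a, Tcf7l2, Hhex and Onecut1.

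**Figure D1:**
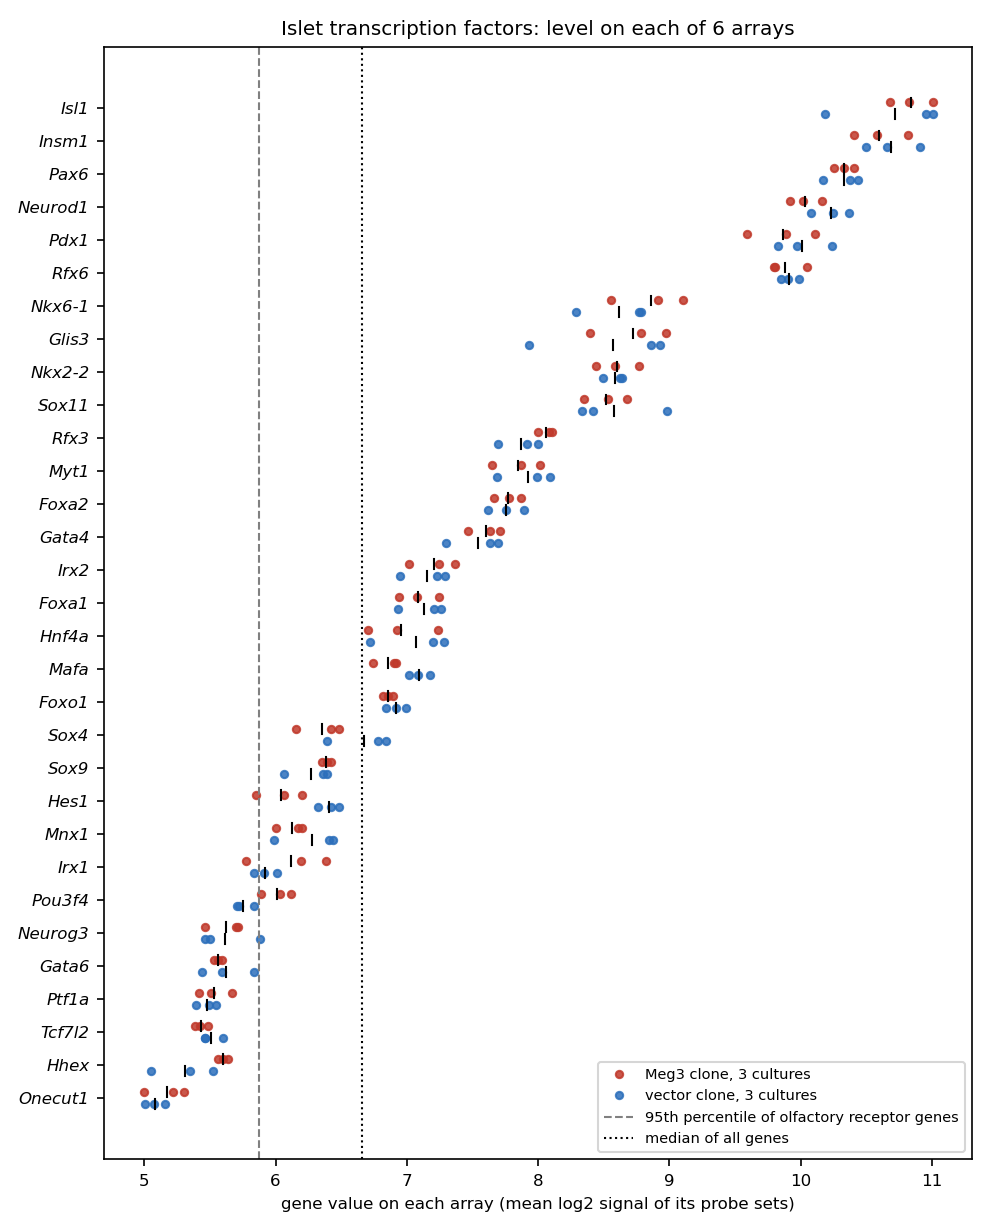
Level of each of the 31 factors on each array, with genes ordered down the page by their mean over 6 arrays and the log2 signal along the horizontal axis. Red points are the 3 Meg3 cultures and blue points the 3 vector cultures, short black bars are clone means, the dashed line is the 95th percentile of olfactory receptor genes (5.88) and the dotted line the median of all genes (6.66). The 6 brightest factors lie clear of the rest, and the clones' points overlap for all genes but 4 (Mafa, Hes1, Hhex and Pou3f4).

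CG dinucleotides around the start sites were counted as a feature that array signal did not use. RefSeq windows running from 250 bases before to 50 bases after a start site (GRCm38.p6) were found for 24 of the 31 factors, 31 windows in all. Of these, 23 windows held 12 or more CG dinucleotides (74.2%), against 39.6% of all windows in the table. The 5 factors with a window among those at or below the olfactory receptor level had 6 windows. Their median was 28.5 CG dinucleotides a window (range 7 to 38). The 5 with a window among the 6 brightest also had 6 windows, with a median of 17 (range 2 to 37). The 4 windows printed here pair factors that differ in signal: Neurod1 and Neurog3, related bHLH activators of which Neurod1 was bright and Neurog3 dim, and Rfx6 and Hhex, a bright factor with few CG dinucleotides and a dim factor with many. They lie at chr2:79456587-79456886 on the minus strand for Neurod1 (26 CG dinucleotides), chr10:62132840-62133139 on the plus strand for Neurog3 (19), chr10:51685268-51685567 on the plus strand for Rfx6 (2) and chr19:37434591-37434890 on the plus strand for Hhex (37). Each runs 5′ to 3′ on the strand of its gene, with CG dinucleotides in capitals.
Neurod1: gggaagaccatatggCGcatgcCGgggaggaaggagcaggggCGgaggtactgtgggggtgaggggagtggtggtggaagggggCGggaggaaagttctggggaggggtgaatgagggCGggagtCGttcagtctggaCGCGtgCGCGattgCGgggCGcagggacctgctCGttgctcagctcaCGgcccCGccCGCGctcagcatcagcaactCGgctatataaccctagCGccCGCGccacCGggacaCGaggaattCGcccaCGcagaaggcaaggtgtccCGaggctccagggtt
Neurog3: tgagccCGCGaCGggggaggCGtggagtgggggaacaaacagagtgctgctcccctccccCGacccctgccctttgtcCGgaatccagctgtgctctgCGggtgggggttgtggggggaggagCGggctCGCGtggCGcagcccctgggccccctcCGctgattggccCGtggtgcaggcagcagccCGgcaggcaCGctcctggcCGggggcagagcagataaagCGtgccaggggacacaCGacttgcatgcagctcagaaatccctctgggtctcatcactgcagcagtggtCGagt
Rfx6: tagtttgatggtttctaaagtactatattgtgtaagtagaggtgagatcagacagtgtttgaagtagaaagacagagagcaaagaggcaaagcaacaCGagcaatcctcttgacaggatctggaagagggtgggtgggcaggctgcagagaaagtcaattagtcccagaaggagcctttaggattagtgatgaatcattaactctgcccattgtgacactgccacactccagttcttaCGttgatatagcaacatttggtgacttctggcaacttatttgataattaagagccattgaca
Hhex: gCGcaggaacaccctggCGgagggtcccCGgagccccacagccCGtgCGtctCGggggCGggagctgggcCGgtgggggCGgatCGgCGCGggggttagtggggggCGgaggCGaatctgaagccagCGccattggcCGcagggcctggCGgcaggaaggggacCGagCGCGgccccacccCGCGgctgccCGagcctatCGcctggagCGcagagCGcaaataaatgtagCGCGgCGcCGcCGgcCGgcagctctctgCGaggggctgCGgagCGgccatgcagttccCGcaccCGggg

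The arrays were alike except for a pair that stood apart, 1 in each clone. Between pairs of arrays, gene values correlated at 0.968 or more. Meg3 replicate 1 and vector replicate 2 stood apart: measured against the median of the remaining arrays, their probe set values scattered with SDs of 0.629 (Meg3 replicate 1) and 0.846 (vector replicate 2) on the log2 scale, and those of the other 4 arrays with SDs of 0.425 to 0.476. Over the 31 factors, vector replicate 2 differed by more than 0.3 from the mean of the other vector cultures for 14 genes, 5 of them above and 9 below, a share of 45.2% that compares with 49.3% of all genes. For Meg3 replicate 1 that share was 19.4% of the factors and 28.9% of all genes. On vector replicate 2, Glis3 read 0.97 and Isl1 0.79 below the other vector cultures, and Sox11 read 0.60 above them. Meg3 itself, whose expression had been tested in the clones before these arrays, serves as the check of the labels and had log2 values of 7.24, 7.91 and 7.53 in the Meg3 cultures, against 5.63, 6.00 and 5.88 in the vector cultures, with no overlap (difference 1.72, SE 0.19; limma adjusted p = 0.00756).

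**Figure D2:**
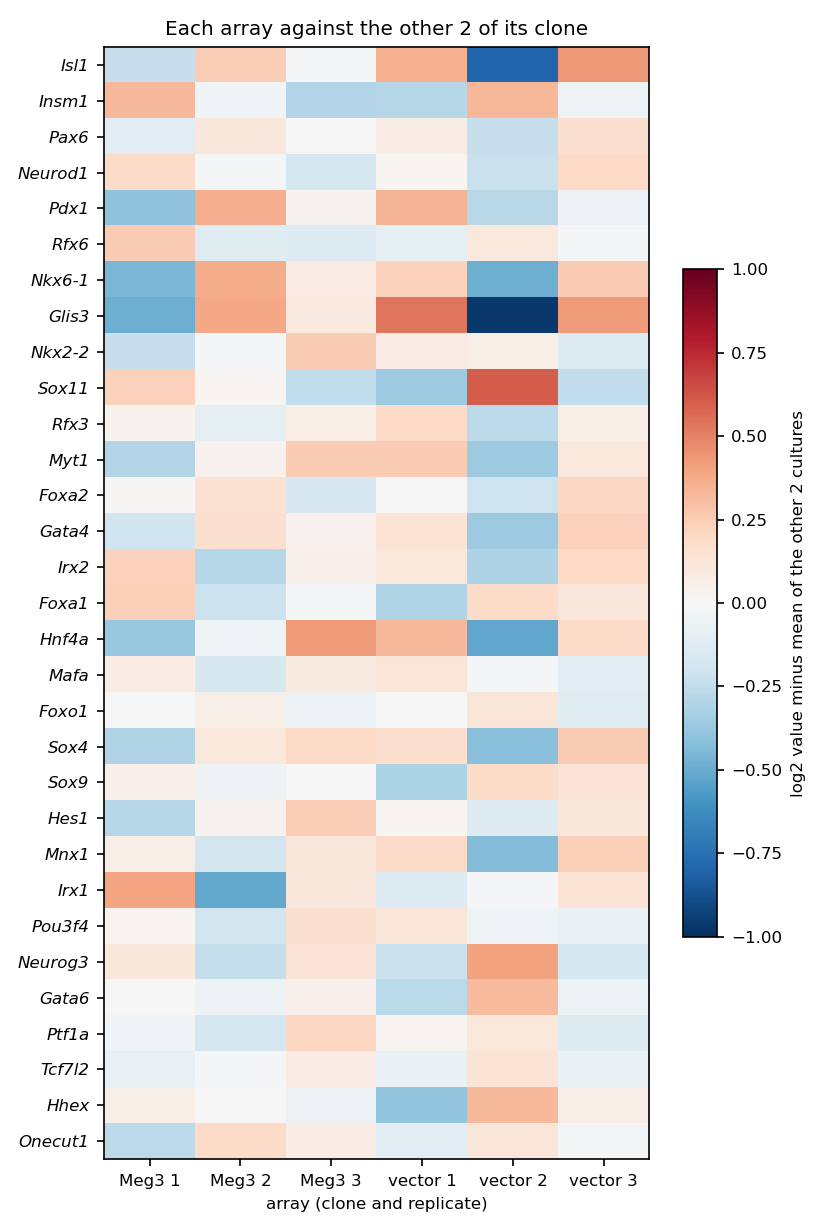
Value of each factor on each array minus the mean of the other 2 cultures of the same clone (colour, log2), with genes down the page in order of level and the Meg3 arrays left of the vector arrays. The column of vector replicate 2 holds the strongest colours, with Glis3 at -0.97, Isl1 at -0.79 and Sox11 at 0.60.

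No factor of the 31 was called different between the Meg3 clone and the vector clone. With limma and Benjamini-Hochberg adjustment over all 20416 genes, 0 factors had an adjusted p under 0.05, where 0.666% of all genes did (0.201% with the Meg3 clone higher, 0.465% with it lower), and the lowest adjusted p of the 31 was 0.514 (Hes1). At an unadjusted p under 0.05 there was 1 factor, Hes1, where 6.96% of all genes passed. The differences were positive (higher in the Meg3 clone) for 16 factors and negative for 15, with a median of 0.0038 on the log2 scale, beside 0.0060 over all genes. Without Meg3 replicate 1 and vector replicate 2, still 0 factors were called, where 5.44% of all genes were, and 8 passed an unadjusted p under 0.05, where 19.1% of all genes did. The 8 were Sox4, Neurod1, Hhex, Hes1, Mnx1, Mafa, Onecut1 and Nkx6-1. With arrays weighted by an estimate that did not converge, 5 of the 31 factors were called, where 13.1% of all genes were, and with weights estimated gene by gene 1 of the 31 was, where 6.1% of all genes were. The median size of a difference, whatever its sign, was 0.092 for the factors and 0.10 for all genes.

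The intervals bound how far apart the array signals of the clones can lie. For the 6 factors at or below the olfactory receptor level, which read like genes with little RNA, they cannot bound a difference in RNA. Nor can they for Pou3f4, which was below that level in the vector clone. For the other factors the step from signal to RNA was not tested. The means of Mnx1, Foxo1 and Hnf4a, for example, include probe sets as dim as 4.43, 3.56 and 4.33. The 95% interval of the difference, unadjusted for the number of genes, lay wholly within a 2-fold difference either way for all 31 factors, as it did for 95.9% of all genes. Its outermost bounds among the factors were -0.69 (Sox4) and 0.78 (Glis3) on the log2 scale. For 25 of the 31 the interval also lay within 1.5-fold, as for 72.7% of all genes; that count was 17 of 31 with the median of a gene's probe sets, 16 of 31 with its brightest probe set and 16 of 26 with probe sets above the median. To be called in this fit with its own standard error, a factor would have needed a log2 difference of 0.657 (Foxo1) to 1.65 (Glis3), a limit that holds for this fit, in which all arrays weigh the same. Without Meg3 replicate 1 and vector replicate 2, the interval lay within 2-fold for 31 factors (98.4% of all genes) and within 1.5-fold for 30 (89.2%). With 3 arrays a clone, the smallest two-sided p of an exact permutation test is 0.1.

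**Figure D3:**
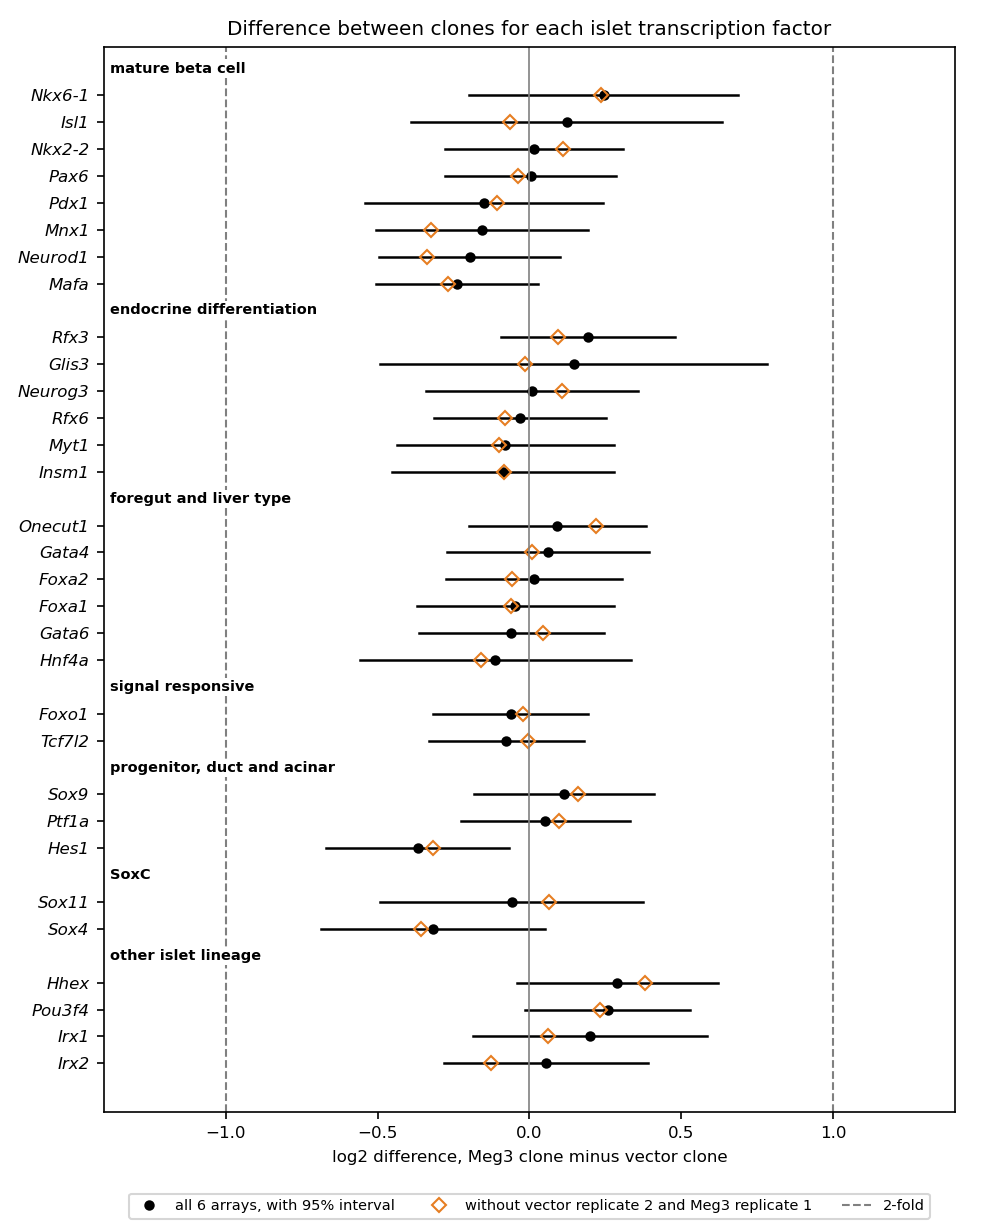
Log2 difference, Meg3 clone minus vector clone, for each factor (black points) with its 95% interval from limma (black lines), grouped by role, and the same difference without Meg3 replicate 1 and vector replicate 2 (orange diamonds). Dashed lines mark 2-fold, and all 31 intervals lie between them.

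Among the factors of mature beta cells, 7 of 8 lay above the median of all genes and 0 were called (limma). Isl1, a LIM-homeodomain factor of islets and neurons, was the brightest of all 31, at 10.68, 11.01 and 10.83 in the Meg3 cultures and 10.96, 10.19 and 11.01 in the vector cultures. The single low value is that of vector replicate 2, and the groups overlapped. Its difference was 0.12 (SE 0.22), and -0.064 (SE 0.10) without the arrays that stood apart. Pax6, a paired-homeodomain activator of islet hormone genes, had 10.26, 10.41 and 10.33 in the Meg3 cultures and 10.38, 10.17 and 10.44 in the vector cultures. It was the most even of the bright factors, with an SD of 0.099 over 6 arrays and a difference of 0.0038 (SE 0.12). Neurod1, the bHLH partner of Pdx1 at the insulin promoter, read 10.16, 10.02 and 9.92 in the Meg3 cultures and 10.25, 10.08 and 10.37 in the vector cultures. The groups overlapped through Meg3 replicate 1 and vector replicate 2, the arrays that stood apart. The difference was -0.20 (SE 0.13), or a ratio of 0.872, and -0.34 (SE 0.10; limma adjusted p = 0.0945) without both.

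Pdx1, the homeodomain factor needed to form the pancreas and to keep beta cell identity, had 9.59, 10.11 and 9.89 in the Meg3 cultures and 10.24, 9.83 and 9.97 in the vector cultures, a difference of -0.15 (95% interval -0.54 to 0.24). That difference was -0.016 without Meg3 replicate 1, -0.037 without vector replicate 1, -0.24 without vector replicate 2, -0.27 without Meg3 replicate 2 and -0.47 with the median of probe sets. Nkx6-1, a homeodomain repressor of alpha cell genes in beta cells, had 8.55, 9.11 and 8.92 in the Meg3 cultures and 8.77, 8.29 and 8.79 in the vector cultures, a difference of 0.24 (-0.20 to 0.69). It was 0.082 without vector replicate 2, 0.12 without Meg3 replicate 2, 0.40 without Meg3 replicate 1 and 0.51 with the median of probe sets. For both factors the cultures of a clone spread over 0.4 or more and the groups overlapped. Nkx2-2, a homeodomain factor of endocrine specification, stood at 8.60 ± 0.16 in the Meg3 clone and 8.59 ± 0.08 in the vector clone (SD, n = 3 each), with a difference of 0.015 (SE 0.13).

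Mafa and Mnx1 were the dimmest of the beta cell factors. Mafa, the bZIP activator of insulin transcription that marks mature beta cells, was measured by 1 probe set, which read 6.90, 6.75 and 6.92 in the Meg3 cultures and 7.18, 7.09 and 7.02 in the vector cultures. All 3 Meg3 cultures lay below all 3 vector cultures, by 0.24 in the mean (SE 0.12; 95% interval -0.51 to 0.027; limma adjusted p = 0.802). Mnx1, a homeodomain factor of the dorsal pancreatic bud and of beta cells, had 6.17, 6.00 and 6.20 in the Meg3 cultures and 6.41, 5.99 and 6.44 in the vector cultures. Vector replicate 2 was the lowest of all 6. The difference was -0.16 (SE 0.15), and -0.32 (SE 0.10; limma adjusted p = 0.123) without the arrays that stood apart.

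The endocrine differentiation factors ran from the next brightest gene after Isl1 to a gene at the olfactory receptor level, with 0 of 6 called (limma). Insm1, a zinc-finger factor that neuroendocrine cells share, had 10.82, 10.58 and 10.40 in the Meg3 cultures and 10.50, 10.91 and 10.66 in the vector cultures, a difference of -0.087 (SE 0.16). Rfx6, a winged-helix factor required for islet cell formation, stood at 9.88 ± 0.14 in the Meg3 clone and 9.91 ± 0.07 in the vector clone (SD, n = 3 each). Its relative Rfx3, which also drives cilia genes, was lower in signal: Rfx6 minus Rfx3 was 1.82 in the Meg3 clone and 2.05 in the vector clone. Rfx3 had 8.08, 7.9964 and 8.10 in the Meg3 cultures and 7.9998, 7.69 and 7.91 in the vector cultures, a difference of 0.19 (SE 0.12). The groups overlapped only in that vector replicate 1 lay level with the lowest Meg3 culture.

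Glis3, a zinc-finger activator of the insulin gene, had the largest standard error of the 31. It read 8.39, 8.98 and 8.79 in the Meg3 cultures and 8.93, 7.93 and 8.86 in the vector cultures, with vector replicate 2 lowest by far. The difference was 0.15 (SE 0.28), and -0.013 (SE 0.11) without the arrays that stood apart. Myt1, a zinc-finger factor of endocrine progenitors, stood at 7.85 ± 0.18 in the Meg3 clone and 7.92 ± 0.21 in the vector clone (SD, n = 3 each). Neurog3, the bHLH switch of endocrine commitment, had 5.70, 5.46 and 5.71 in the Meg3 cultures and 5.46, 5.88 and 5.50 in the vector cultures. Vector replicate 2, at the 95th percentile of olfactory receptor genes, was the highest, and the other 5 lay under it. The Neurod1 signal exceeded that of Neurog3 by 4.41 ± 0.18 in the Meg3 clone and 4.62 ± 0.36 in the vector clone (SD, n = 3 each).

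Of the 6 foregut factors, which liver and pancreas share, 4 lay above the median of all genes and 0 were called (limma). Foxa1 and Foxa2 are forkhead pioneer factors that open chromatin in endoderm. Foxa2 stood at 7.77 ± 0.10 in the Meg3 clone and 7.76 ± 0.14 in the vector clone, and Foxa1 at 7.09 ± 0.15 in the Meg3 clone and 7.13 ± 0.18 in the vector clone (SD, n = 3 each). Foxa2 exceeded Foxa1 on every array, by 0.359 to 0.930. Gata4, a zinc-finger factor of the early pancreas, stood at 7.60 ± 0.12 in the Meg3 clone and 7.54 ± 0.21 in the vector clone (SD, n = 3 each). Its relative Gata6 stood lower, with 5.57, 5.53 and 5.60 in the Meg3 cultures and 5.44, 5.84 and 5.59 in the vector cultures. The mean of Gata6 hides a split among its 9 probe sets, of which the brightest reached 8.34 and the dimmest 3.77. Hnf4a, a nuclear receptor of liver, gut and beta cells, had 6.71, 6.93 and 7.24 in the Meg3 cultures and 7.29, 6.72 and 7.20 in the vector cultures, a difference of -0.11 (SE 0.19). Onecut1, which acts before Neurog3 in progenitors, was the dimmest of all 31, at 5.17 ± 0.16 in the Meg3 clone and 5.08 ± 0.08 in the vector clone (SD, n = 3 each).

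Hes1, Sox9 and Ptf1a, factors of progenitors, ducts and acini, all lay below the median of all genes, and 0 of 3 were called (limma). Hes1, the Notch-driven repressor of Neurog3, showed the largest difference of the 31 factors in the fit of all 6 arrays. It read 5.85, 6.07 and 6.20 in the Meg3 cultures and 6.42, 6.32 and 6.48 in the vector cultures. All 3 Meg3 cultures lay below all 3 vector cultures. The difference was -0.37 (SE 0.13), a ratio of 0.775, with a 95% interval of -0.67 to -0.067 that left out 0 before adjustment (limma adjusted p = 0.514). Without the arrays that stood apart it was -0.318, smaller in size than that of Hhex (0.38), Sox4 (-0.36), Neurod1 (-0.34) and Mnx1 (-0.323). With the median of probe sets the Hes1 difference was -0.17. All 4 Hes1 probe sets were lower in the Meg3 clone, with differences from -0.74 to -0.0028. The probe set at -0.74 had a level of 4.28, below the olfactory receptor level. Sox9, which maintains progenitors and marks duct cells, had 6.42, 6.35 and 6.39 in the Meg3 cultures and 6.06, 6.40 and 6.36 in the vector cultures. Ptf1a, the acinar master regulator, stood at 5.53 ± 0.13 in the Meg3 clone and 5.48 ± 0.08 in the vector clone (SD, n = 3 each).

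Of the SoxC factors, Sox11 lay above the median of all genes and Sox4 below it, and 0 of 2 were called (limma). Sox11 exceeded Sox4 by 2.17 ± 0.33 in the Meg3 clone and by 1.91 ± 0.59 in the vector clone (SD, n = 3 each). Sox4, an HMG-box factor of endocrine differentiation, read 6.16, 6.42 and 6.48 in the Meg3 cultures and 6.78, 6.39 and 6.84 in the vector cultures. The Meg3 cultures were lower than vector replicates 1 and 3 and overlapped with vector replicate 2. The difference was -0.32 (SE 0.16; limma adjusted p = 0.832), and -0.36 (SE 0.096; limma adjusted p = 0.0654) without the arrays that stood apart. Sox11 had 8.68, 8.53 and 8.35 in the Meg3 cultures and 8.34, 8.98 and 8.42 in the vector cultures, a difference of -0.058 (SE 0.19).

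Of the factors known from other islet lineages, Irx2 alone lay above the median of all genes, and 0 of 4 were called (limma). Irx1 and Irx2 are homeodomain factors enriched in alpha cells. Irx2 stood at 7.21 ± 0.18 in the Meg3 clone and 7.16 ± 0.18 in the vector clone, and Irx1 at 6.12 ± 0.31 in the Meg3 clone and 5.92 ± 0.09 in the vector clone (SD, n = 3 each). Pou3f4, a POU factor of alpha cells measured by 1 probe set, read 6.03, 5.89 and 6.12 in the Meg3 cultures and 5.83, 5.72 and 5.70 in the vector cultures. Hhex, which in islets marks delta cells, read 5.64, 5.60 and 5.56 in the Meg3 cultures and 5.05, 5.53 and 5.35 in the vector cultures. For both genes the Meg3 cultures all exceeded the vector cultures, by 0.26 (SE 0.12; limma adjusted p = 0.749) for Pou3f4 and 0.29 (SE 0.14; limma adjusted p = 0.821) for Hhex. Hhex was nonetheless at or below the 95th percentile of olfactory receptor genes in both clones, and Pou3f4 in the vector clone. With Mafa and Hes1, these made 4 of 31 factors whose groups did not overlap, where 12.8% of all genes did not (6.41% with the Meg3 clone higher, 2 factors, and 6.39% with it lower, 2 factors).

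The signal-responsive pair had the smallest SDs over the 6 arrays of all 31 factors, and 0 of 2 were called (limma). Foxo1, a forkhead factor that insulin signalling keeps out of the nucleus, stood at 6.86 ± 0.04 in the Meg3 clone and 6.92 ± 0.08 in the vector clone (SD, n = 3 each), a difference of -0.062 (95% interval -0.32 to 0.19). Tcf7l2, a Wnt pathway effector at a known type 2 diabetes locus, stood at 5.43 ± 0.05 in the Meg3 clone and 5.51 ± 0.08 in the vector clone (SD, n = 3 each), a difference of -0.076 (-0.33 to 0.18). The low mean of Tcf7l2 covers 22 probe sets, with levels from 3.73 to 7.80.

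Neighbours in the order of levels could seldom be separated. Of the 30 neighbouring pairs, 28 had ranges over the 6 arrays that overlapped. The gaps without overlap were those between Rfx6 and Nkx6-1 (1.16 in the mean) and between Sox11 and Rfx3 (0.58). The same 6 factors were the brightest in the Meg3 clone alone, in the vector clone alone and with the median of probe sets in place of the mean. They were not so by the brightest probe set of each gene. There Nkx2-2 (12.37) and Sox11 (11.51) lay above Rfx6 (11.38) and Neurod1 (11.37), and Pax6 (13.34) lay above Isl1 (12.05). Around the olfactory receptor level, the factors just above were Irx1 at 6.02 and Pou3f4 at 5.88, and those just below were Neurog3 at 5.62 and Gata6 at 5.59. With the brightest probe set of each gene, 29 factors lay above that level, computed the same way, where 84.1% of all genes did. Hhex and Pou3f4 did not.

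Exon-level probe sets were also compared singly. In the Meg3 clone, 129 of the 249 read higher and 120 read lower, and 0 were called with limma over all 241419 probe sets, where 0.000828% were. The lowest adjusted p among them was 0.613 (limma), for a Sox4 probe set. Among the 29 factors with at least 2 probe sets, 26 had probe sets on both sides of 0. Those with all on 1 side were Hes1, Insm1 and Hhex. Within a gene, levels of probe sets spread widely, by as much as 7.54 for Pax6, so a difference between genes of a few log2 units is within what probes of 1 gene can show.

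**Figure D4:**
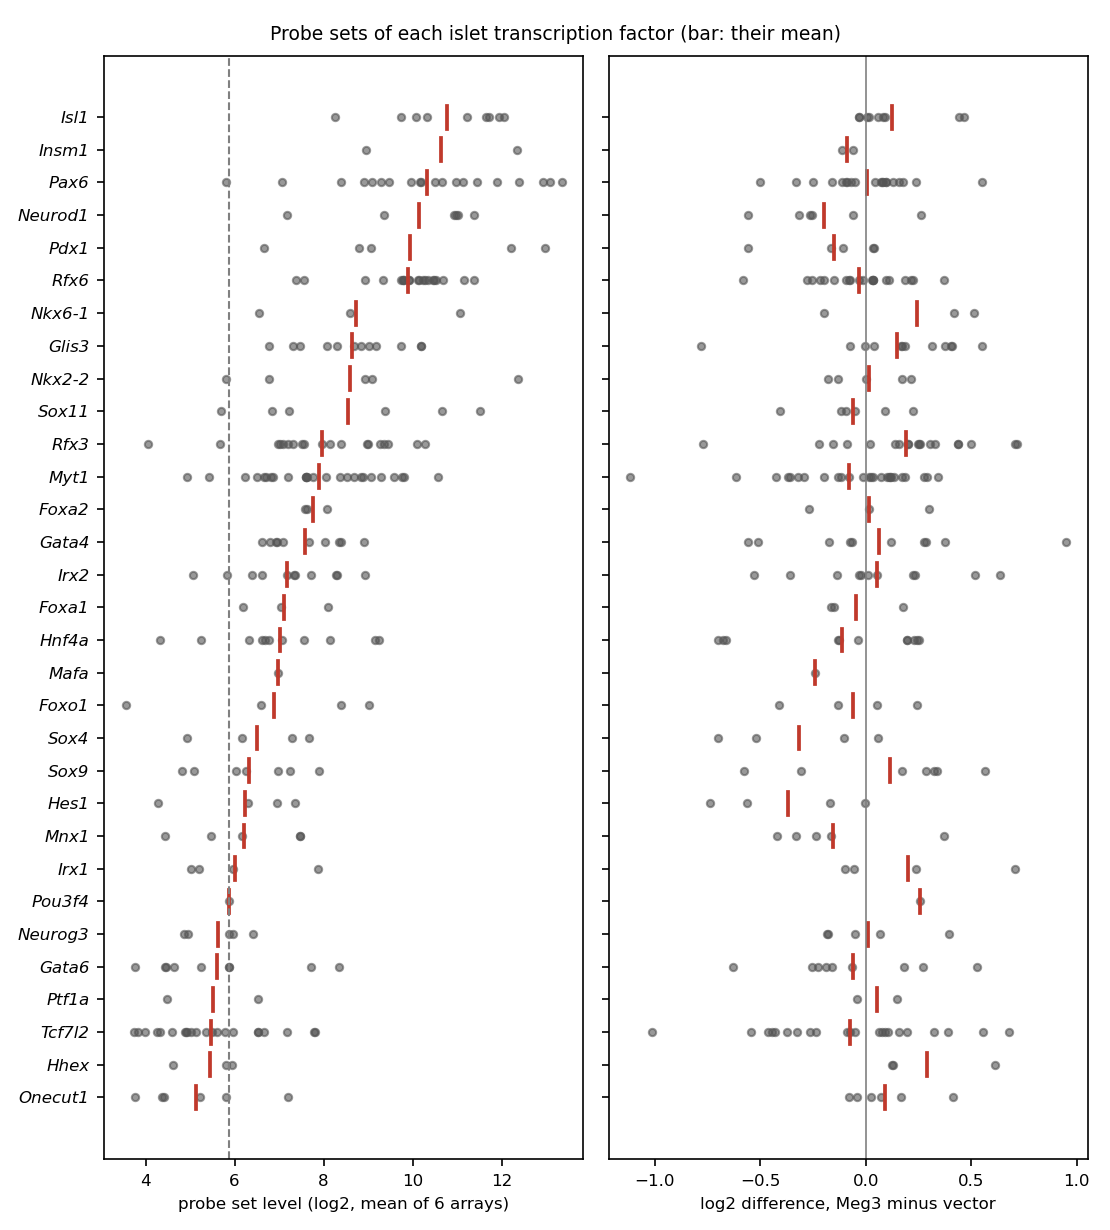
Each grey point is a probe set of the factor named at the left, with its level (log2, mean of 6 arrays) in the left panel and its log2 difference, Meg3 clone minus vector clone, in the right panel. Red bars are means over the probe sets of a gene, and the dashed line is the 95th percentile of olfactory receptor genes (5.88). Levels spread over several log2 units within most genes, and the differences scatter on both sides of 0 for 26 of the 29 genes with at least 2 probe sets.

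Lists of genes that work with these factors or lie downstream of them held 0 calls as well. Of 24 measured cofactors and related factors, 0 were called (limma), where 0.666% of all genes were. At an unadjusted p under 0.05 there were 4, where 6.96% of all genes passed. The median difference over the 24 was 0.032. The brightest were Etv1, an ETS factor, with a difference of -0.34 (SE 0.15), and St18, a zinc-finger relative of Myt1, with -0.29 (SE 0.12). Of 28 measured targets in beta cells, 0 were called (9 at an unadjusted p under 0.05, where 6.96% of all genes passed), with a median difference of -0.12, beside 0.0060 over all genes. Of the 9, named after their values were seen, Pcsk1, Ero1lb, Tmem27, Npy and Slc2a2 were lower in the Meg3 clone. Sytl4, Cacna1d, Slc18a2 and Ucn3 were higher. The brightest targets were Iapp, the amylin gene, with -0.12 (SE 0.23), and G6pc2, the gene of an islet glucose-6-phosphatase, with -0.049 (SE 0.14). The largest difference in that list was in Ero1lb, an oxidoreductase of proinsulin folding, chosen after its value was seen (-1.05, SE 0.20; limma adjusted p = 0.0765).

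Markers of the labelled cell type were bright in part. Of 9 beta cell markers, 8 lay above the olfactory receptor level in the mean of all arrays, where 66.0% of all genes did. Pdx1, Nkx6-1 and Mafa, already described above as factors, are 3 of the 9, so the list is not independent of the factors. Ins2, an insulin gene named for its role after its value was seen, stood at 12.60 ± 0.05 in the Meg3 clone and 12.54 ± 0.09 in the vector clone (SD, n = 3 each). Ucn3, a peptide of mature beta cells chosen after its value was seen, was the marker below that level, at 5.75 ± 0.01 in the Meg3 clone and 5.40 ± 0.26 in the vector clone (SD, n = 3 each). Slc2a2, the beta cell glucose transporter gene, chosen likewise, stood at 6.87 ± 0.11 in the Meg3 clone and 7.14 ± 0.03 in the vector clone (SD, n = 3 each). Of 5 measured alpha cell markers, the brightest were the glucagon gene Gcg and Ttr. Gcg stood at 12.66 ± 0.11 in the Meg3 clone and 12.82 ± 0.12 in the vector clone (SD, n = 3 each). Ttr stood at 11.98 ± 0.06 in the Meg3 clone and 11.90 ± 0.23 in the vector clone (SD, n = 3 each). The other alpha cell markers, Irx2, Irx1 and Pou3f4, are factors described above. Their means over all arrays were lower, at 7.18 for Irx2, 6.02 for Irx1 and 5.88 for Pou3f4.

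Markers of other cell types gave 0 calls in every list (limma). The median level per array of 10 acinar markers ran from 5.70 to 5.83 in the Meg3 cultures and from 5.66 to 5.80 in the vector cultures, with 6 of 10 at or below the olfactory receptor level. Bhlha15, a factor of secretory cells (-0.17, SE 0.18), and Ctrl, a chymotrypsin-like protease gene (0.24, SE 0.15), were the brightest. All 4 endothelial markers, led by Pecam1 (-0.034, SE 0.13) and Cdh5 (0.15, SE 0.11), were at or below it, with medians of 5.20 to 5.26 in the Meg3 cultures and 5.06 to 5.40 in the vector cultures. The 8 mesenchymal markers, led by the collagen genes Col1a1 (-0.039, SE 0.12) and Col1a2 (0.11, SE 0.11), had 4 at or below it and medians of 5.84 to 5.94 in the Meg3 cultures and 5.87 to 6.14 in the vector cultures, and the 4 leukocyte markers 5.81 to 5.91 in the Meg3 cultures and 6.03 to 6.16 in the vector cultures. The brightest leukocyte markers were Cd68 (-0.29, SE 0.28) and Cd3e (-0.56, SE 0.14; limma adjusted p = 0.227). The 7 duct markers had medians of 6.35 to 6.42 in the Meg3 cultures and 5.63 to 6.32 in the vector cultures, with 2 at or below the olfactory receptor level. The median marker was Sox9 in every Meg3 culture, but Muc1 or Anxa2 in the vector cultures, so these ranges compare different genes. The brightest duct markers were Spp1, with a mean of 12.09 over all arrays (-0.48, SE 0.12; limma adjusted p = 0.231), and Krt7, with 10.08 (-0.11, SE 0.19). In that list, which holds Sox9, Anxa2 differed most (1.30, SE 0.34; limma adjusted p = 0.227), named after its value was seen. The 3 delta markers had medians of 6.07 to 6.23 in the Meg3 cultures and 6.11 to 6.42 in the vector cultures, and the 3 PP and epsilon markers 7.10 to 7.29 in the Meg3 cultures and 6.86 to 7.16 in the vector cultures. The brightest of these were Sst (-0.14, SE 0.11), Rbp4 (-0.14, SE 0.13), Ghrl (0.25, SE 0.14) and Ppy (0.12, SE 0.13). The acinar list holds Ptf1a and the delta list holds Hhex, both already described above as factors. The part of such cells in the values of the factors was not tested.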

How the data were processed

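The authors deposited a log2 signal for each of 241419 exon-level probe sets; RMA and Partek are the tools that the submitters' processing notes name, without versions or a genome build. Medians of the 6 arrays ran from 7.02 to 7.19. Single symbols were annotated for 212097 probe sets, and 4475 had several and 24847 had none. A gene's value was the mean log2 value of its single-symbol probe sets (20416 genes). Of the symbols, 17621 were current in the RefSeq table of GRCm38.p6, 2790 matched a synonym and 5 matched nothing. Precision is limited by the number of arrays, 3 a clone.

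Differences, Meg3 minus vector, came from lmFit and eBayes (limma 3.58.1, R 4.3.3; two-sided). No covariate and no filter on dim genes was used, and p-values were Benjamini-Hochberg adjusted over the 20416 genes, with calls under 0.05. Errors of differences are moderated standard errors. The steps were tested on simulated data. The factors, the companion and marker lists, the naming rule and the arrays left out together were chosen with earlier results of these data known. All factors were named, and from each other list any called gene or else its 2 brightest; others are marked. The companion lists were cofactors and related factors, and known targets in beta cells. The marker lists covered beta, alpha, delta, PP and epsilon, acinar, duct, mesenchymal, endothelial and leukocyte cells. Some listed genes had no value in the table used and are not analysed here. Alternatives were a replicate block, centring, quantile normalization, a dim-gene filter (30%), other probe set summaries, trend and robust estimation, array weights and leaving arrays out.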

Additional observations from a re-analysis of the deposited data

How the results depend on the processing

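In the unweighted fit, differences had to exceed 0.657 to 1.65 (log2) for these factors to be called, and array signal does not rank RNA copies. The count of factors called stayed at 0 under the replicate block, centring, repeated quantile normalization, the filter on dim genes, other probe set summaries, trend and robust estimation, and each array left out. It was 5 of 31 with array weights, where 13.1% of all genes were called (Neurod1 -0.37, Mnx1 -0.31, Hes1 -0.36, Sox4 -0.40 and Pou3f4 0.31; limma adjusted p from 0.00900 to 0.0303), an estimate that did not converge and gave vector replicate 3 a weight of 10.5 and vector replicate 2 one of 0.130. It was 1 (Sox4 -0.39; limma adjusted p = 0.0404), where 6.1% of all genes were called, with weights estimated gene by gene, a setting chosen after seeing the data. Deviations from clone means of same-numbered cultures correlated at -0.614, -0.628 and 0.276. Those of Meg3 replicate 1 and vector replicate 2, the arrays that stood apart, correlated at 0.654. With 3 arrays a clone, such correlations cannot show whether the cultures were handled as pairs. With the replicate block, 30 genes were called in place of 136. Other counts over all genes were 58 with the median of probe sets and 40 with the brightest probe set. They were 2682 with array weights and 1246 with weights gene by gene. Without vector replicate 2 and Meg3 replicate 1 together, 8 of 31 factors passed an unadjusted p under 0.05, where 19.1% of all genes did. In that fit 0 of 31 factors were called, and 1111 of all genes were (5.44%). Leaving out single arrays gave 22 (without Meg3 replicate 3) to 349 (without vector replicate 2), with 79, 26, 59 and 50 without Meg3 replicates 1 and 2 and vector replicates 1 and 3. The interval lay within 2-fold for 29 to 31 of 31 factors wherever all were measured, and for 25 of 25 with the dimmest 30% of genes left out and 25 of 26 with probe sets above the median. The median difference of the factors ran from -0.040 (array weights) to 0.045 (brightest probe set). Of the 31 signs, 10 held under every alternative that measured the gene, of 17 run, and 21, all of uncalled differences, turned under at least 1; the cause was not tested. They were, with the median of probe sets, Mnx1 0.32, Myt1 0.0615, Neurog3 -0.0855 and Onecut1 -0.017; with the brightest probe set, Pdx1 0.035, Isl1 -0.030, Rfx6 0.035, Myt1 0.036, Neurog3 -0.19, Foxa1 0.17, Hnf4a 0.24, Gata6 0.27, Tcf7l2 0.093 and Irx2 -0.14; with probe sets above the median, Pax6 -0.013, Foxa1 0.17, Hnf4a 0.045, Gata4 -0.071 and Gata6 0.23. With array weights they were Isl1 -0.11, Pax6 -0.075, Glis3 -0.040, Foxa2 -0.13, Gata4 -0.040, Foxo1 0.0015, Sox11 0.037 and Irx2 -0.11, and gene by gene Isl1 -0.083, Pax6 -0.055, Glis3 -0.037, Foxa2 -0.081, Gata4 -0.018, Gata6 0.014, Sox11 0.054 and Irx2 -0.0905. Without vector replicate 2 and Meg3 replicate 1 they were Isl1 -0.064, Pax6 -0.036, Glis3 -0.013, Foxa2 -0.057, Gata6 0.046, Sox11 0.065 and Irx2 -0.13. With single arrays left out, ranges that crossed 0 were Nkx2-2 -0.069 to 0.093, Isl1 -0.14 to 0.27, Pax6 -0.074 to 0.057, Insm1 -0.20 to 0.024, Rfx6 -0.11 to 0.014, Glis3 -0.18 to 0.33, Myt1 -0.20 to 0.019, Neurog3 -0.066 to 0.14, Foxa1 -0.15 to 0.026, Foxa2 -0.054 to 0.084, Hnf4a -0.29 to 0.014, Gata4 -0.059 to 0.14, Gata6 -0.15 to 0.047, Ptf1a -0.016 to 0.11, Sox11 -0.18 to 0.14 and Irx2 -0.048 to 0.15. Those that did not were Pdx1 -0.27 to -0.016, Mafa -0.28 to -0.18, Nkx6-1 0.082 to 0.40, Neurod1 -0.27 to -0.13, Mnx1 -0.30 to -0.075, Rfx3 0.10 to 0.26, Onecut1 0.028 to 0.18, Foxo1 -0.10 to -0.023, Tcf7l2 -0.10 to -0.029, Sox9 0.0088 to 0.17, Hes1 -0.45 to -0.27, Sox4 -0.46 to -0.22, Irx1 0.066 to 0.37, Hhex 0.16 to 0.40 and Pou3f4 0.21 to 0.32. Above the olfactory receptor level lay 19 factors at its 99th percentile (46.5% of all genes), 24 with the median of probe sets (65.6%) and 29 at its 90th percentile (74.6%).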
